A study of Mus musculus with 5 samples.

Results

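A total of 2261 of the 89451 binding sites (peaks) in the 3 peak lists of the study were named for a chemosensory receptor gene, and these receptor peaks are described here. They were chosen by the gene name that each list gives a peak, which had to start with Olfr, Vmn1r, Vmn2r or Taar. The data are ChIP-seq at the cardiac progenitor (CP) stage of cardiomyocyte differentiation from 46C mouse embryonic stem cells (ESCs), an established line. ChIP-seq recovers the DNA bound by a protein with an antibody and sequences it. The 3 lists were hnRNPA1 in Zhx1-KO cells (1364 of 51545 peaks were receptor peaks), ZHX1 in 46C-Ctrl cells (584 of 23244) and hnRNPA1 in 46C-Ctrl cells (313 of 14662). All 3 groups had the same line and the same stage, and no other agent or allele is named in the labels. Zhx1-KO cells came from 46C ESCs by CRISPR/Cas9 with guides at both ends of the Zhx1 gene, and whether they were 1 clone is not given in the sources used here. The input samples, 1 of each line, were not analysed here. ZHX1 combines zinc fingers with homeodomains. hnRNPA1 binds RNA and is best studied in splicing. Each group had 1 library and no replicate, so no difference between groups was tested, and every interval below is a 95% interval that covers counting error only. The lists hold positions without scores or read counts. The depth is therefore unknown, and a longer list cannot be told apart from deeper sequencing or a looser threshold. Positions also say nothing of expression, so the CP label could not be checked against markers.

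Odorant receptors (Olfr) are the G protein-coupled receptors with which neurons of the nose detect smells, and the trace amine-associated receptors (Taar) there detect volatile amines. The vomeronasal receptors Vmn1r and Vmn2r serve the vomeronasal organ, which senses pheromones and other social cues; Vmn2r proteins differ by a large extracellular domain that is spread over several exons, so that their genes are long. Receptor genes lie in tandem clusters made by repeated duplication, with many pseudogenes among them, and outside the nose nearly all are silent and packed in closed chromatin. Clusters are therefore rich in near-identical sequence and in repeats.

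The sequences under the peaks carried much of what set this group apart, and 8 positions are printed for what they show. The first set holds 1 wide position for each class with positions that overlapped between lists. Those of Olfr and Vmn2r were the widest of their class, and that of Vmn1r was the next after a wider one at Vmn1r238, whose sequence is not printed. The 3 printed here all lay in Zhx1-KO hnRNPA1 and 46C-Ctrl ZHX1 peaks and were multi-copy. The Olfr1340 position (an odorant receptor gene, in its intron) had a median copy number of 634.5 in its Zhx1-KO hnRNPA1 peak and 618.5 in its ZHX1 peak. The Vmn2r45 position had 456.5 and 536 copies in the same order and the Vmn1r124 position had 17 and 13. Repeats marked in the assembly covered 100% of the Zhx1-KO hnRNPA1 peaks at Olfr1340 and Vmn2r45. The Vmn2r45 position lay 106.7 kb from the start of that gene, in an intron and over the body of Vmn2r-ps49. Whether the copies of these sequences belong to receptor genes or to repeats elsewhere in the genome was not tested. The copy number was obtained by counting each 32-base word of a peak in the GRCm38 assembly and taking the median count. The bases common to the peaks are given on the plus strand of GRCm38, 5′ to 3′, with the central 300 where the common stretch was 325 or 339 bases long. Capitals mark TAGGG, which spells as DNA the RNA motif that hnRNPA1 is known to bind, and CCAAT, the NF-Y motif, with CCCTA and ATTGG for the opposite strand.
Olfr1340, chr4:118723724-118724020: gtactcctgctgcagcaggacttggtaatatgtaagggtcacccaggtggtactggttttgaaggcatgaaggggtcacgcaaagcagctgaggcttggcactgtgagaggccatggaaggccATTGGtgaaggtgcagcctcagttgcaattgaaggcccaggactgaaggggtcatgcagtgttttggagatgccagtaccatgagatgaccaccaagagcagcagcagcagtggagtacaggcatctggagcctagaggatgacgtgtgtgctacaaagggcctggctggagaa
Vmn1r124, chr7:21232004-21232303: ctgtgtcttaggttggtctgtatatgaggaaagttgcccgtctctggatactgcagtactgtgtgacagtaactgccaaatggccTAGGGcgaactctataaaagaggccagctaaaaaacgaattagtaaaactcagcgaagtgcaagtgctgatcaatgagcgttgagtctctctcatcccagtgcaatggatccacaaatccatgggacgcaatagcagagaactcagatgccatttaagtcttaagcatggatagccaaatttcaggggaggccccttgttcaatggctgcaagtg
Vmn2r45, chr7:8595539-8595838: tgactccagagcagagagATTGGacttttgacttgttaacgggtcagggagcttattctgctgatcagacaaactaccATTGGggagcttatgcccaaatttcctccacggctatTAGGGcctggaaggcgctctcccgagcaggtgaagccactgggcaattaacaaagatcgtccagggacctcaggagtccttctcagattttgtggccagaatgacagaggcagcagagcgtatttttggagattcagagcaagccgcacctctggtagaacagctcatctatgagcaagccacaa

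The second set holds positions at which peaks of all 3 lists overlapped, with 1 coding position of a pair of lists (these 5 were chosen after their values were seen). The Vmn2r29 position lay 0.07 kb from the curated RefSeq start of that gene in its nearest peak. Its peaks overlapped no receptor gene body of the GENCODE annotation, and the noncoding exon they lay in was not one of a receptor gene. This position was the G- and C-rich member at 66.3% G and C. Vmn2r114 lay in a coding exon of its vomeronasal receptor gene and had 3 copies. Vmn1r77 and Vmn1r2 were single copy by the 32-base count but repetitive within themselves: moved along by 22 bases, 78.5% of the bases under the Vmn1r77 position matched, and 64.3% of those of Vmn1r2 matched at 21 bases. The Olfr221 stretch is the 27 bases that a Zhx1-KO hnRNPA1 peak and a 46C-Ctrl hnRNPA1 peak had in common in the coding exon of this odorant receptor gene.
Vmn2r29, chr7:7278020-7278295: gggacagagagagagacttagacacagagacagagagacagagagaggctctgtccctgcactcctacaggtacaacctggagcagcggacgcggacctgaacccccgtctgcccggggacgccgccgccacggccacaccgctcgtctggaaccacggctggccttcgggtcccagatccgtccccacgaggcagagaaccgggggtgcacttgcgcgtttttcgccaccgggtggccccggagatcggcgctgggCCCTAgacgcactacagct
Vmn2r114, chr17:23291313-23291450: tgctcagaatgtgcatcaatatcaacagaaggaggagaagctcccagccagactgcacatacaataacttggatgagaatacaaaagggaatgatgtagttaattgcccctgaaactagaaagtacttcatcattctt
Vmn1r77, chr7:12010482-12010749: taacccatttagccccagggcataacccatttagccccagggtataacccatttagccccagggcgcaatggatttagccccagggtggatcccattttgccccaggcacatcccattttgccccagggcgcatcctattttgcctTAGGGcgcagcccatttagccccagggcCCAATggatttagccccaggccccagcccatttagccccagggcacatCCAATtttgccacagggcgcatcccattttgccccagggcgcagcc
Vmn1r2, chr4:3069455-3069642: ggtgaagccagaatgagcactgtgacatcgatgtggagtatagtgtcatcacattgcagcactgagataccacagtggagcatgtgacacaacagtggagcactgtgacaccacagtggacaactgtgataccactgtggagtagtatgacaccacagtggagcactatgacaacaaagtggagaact
Olfr221, chr14:52035554-52035580: acagaatgggcggtccgtcgcagaaga

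The receptor peaks held TAGGG in 37.2% of Zhx1-KO hnRNPA1, 34.2% of ZHX1 and 38.0% of 46C-Ctrl hnRNPA1 peaks, against 35.3%, 34.5% and 34.9% of all peaks of the same lists. In windows of 260 bp placed every 20 kb the motif occurred in 30.2% near receptor genes and in 30.1% of the whole genome. TAGGG was therefore about as frequent in receptor peaks as in other peaks. CCAAT was in 48.6%, 44.2% and 51.8% of the receptor peaks in that order, against 38.2%, 36.4% and 36.3% of all peaks, but windows near receptor genes held it nearly as often (44.7%, against 36.4% in the genome). A match says only that the letters are present.

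Receptor genes took 2.65% (Wilson interval 2.51 to 2.79) of Zhx1-KO hnRNPA1 peaks, 2.51% (2.32 to 2.72) of ZHX1 peaks and 2.13% (1.91 to 2.38) of 46C-Ctrl hnRNPA1 peaks. The sequence closest to a receptor gene made up 2.07% of the genome. In counts, Zhx1-KO hnRNPA1 had 4.36 times (3.85 to 4.94) as many receptor peaks as 46C-Ctrl hnRNPA1, while all peaks differed by 3.52 times. ZHX1 had 1.87 times (1.62 to 2.15) the receptor peaks of 46C-Ctrl hnRNPA1, against 1.59 times over all peaks. The receptor peaks thus followed the length of their list, with a somewhat steeper difference.

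Vmn2r genes had the most peaks per gene in all 3 lists. The Zhx1-KO hnRNPA1 list held 400 Vmn2r, 245 Vmn1r, 714 Olfr and 5 Taar peaks. The ZHX1 list held 184, 108, 291 and 1 in the same order, and the 46C-Ctrl hnRNPA1 list held 87, 63, 162 and 1. Set against the annotated genes of each class (238 Vmn2r, 327 Vmn1r, 1407 Olfr and 16 Taar, pseudogenes included), Zhx1-KO hnRNPA1 had 168 peaks per 100 Vmn2r genes, 74.9 per 100 Vmn1r genes, 50.7 per 100 Olfr genes and 31.2 per 100 Taar genes. ZHX1 had 77.3, 33.0 and 20.7 for the 3 large classes, and 46C-Ctrl hnRNPA1 had 36.6, 19.3 and 11.5. Over all annotated genes Zhx1-KO hnRNPA1 had 93.0, ZHX1 41.9 and 46C-Ctrl hnRNPA1 26.4 per 100, so that Olfr and Vmn1r genes were below and Vmn2r genes above the average gene. The Vmn2r value was 3.31 times the Olfr value in Zhx1-KO hnRNPA1 (exact interval 2.92 to 3.75), 3.74 times in ZHX1 (3.09 to 4.51) and 3.17 times in 46C-Ctrl hnRNPA1 (2.42 to 4.15). The Taar counts were too few to place the class.

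Part of this order went with length. The sequence closest to a curated RefSeq start of each class (unsequenced gaps left out) was divided by all annotated genes of that class. This gave 56.9 kb per Vmn2r gene, 30.7 kb per Vmn1r gene, 22.1 kb per Olfr gene and 13.3 kb per Taar gene. Over all 55450 annotated genes it was 47.8 kb. Genes without a curated start were counted but add no sequence, so these are not lengths for a gene with such a start. Per Mb of such sequence, Zhx1-KO hnRNPA1 had 29.6 Vmn2r, 24.4 Vmn1r and 23.0 Olfr peaks, against 19.5 over all peaks. ZHX1 had 13.6, 10.8 and 9.36, against 8.78, and 46C-Ctrl hnRNPA1 had 6.43, 6.28 and 5.21, against 5.54. The Vmn2r excess over Olfr was smaller on this scale, at 1.29 times (1.14 to 1.46) in Zhx1-KO hnRNPA1, 1.45 times (1.20 to 1.75) in ZHX1 and 1.23 times (0.940 to 1.61) in 46C-Ctrl hnRNPA1, where the interval reaches below 1. This scale was chosen after seeing the data. Relative to all peaks of its list, the density near Vmn2r genes was 1.52 times (1.37 to 1.68) in Zhx1-KO hnRNPA1, 1.55 times (1.33 to 1.79) in ZHX1 and 1.16 times (0.930 to 1.43) in 46C-Ctrl hnRNPA1. For Olfr genes the intervals of this ratio in the same lists were 1.10 to 1.27, 0.947 to 1.20 and 0.802 to 1.10.

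**Figure D1:**
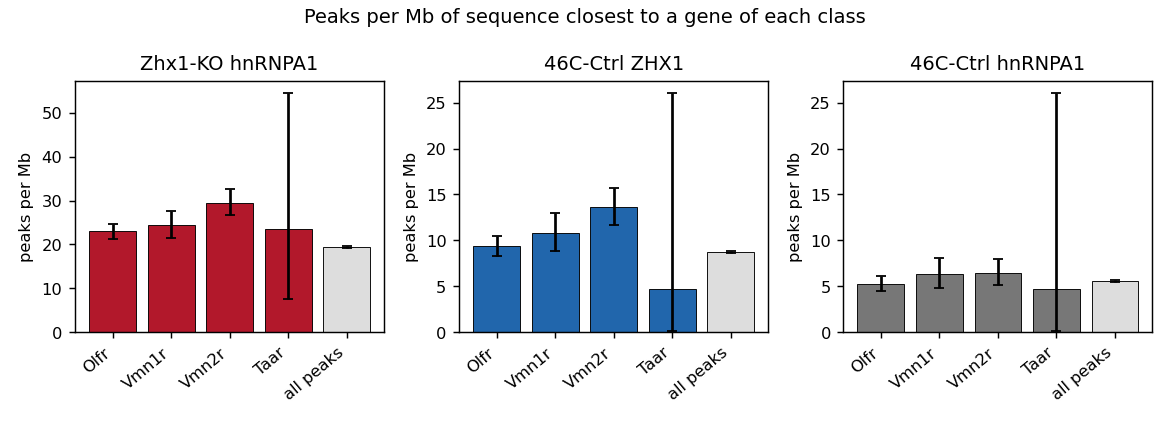
Peaks per Mb of sequence closest to a gene of each receptor class, with exact Poisson 95% intervals of the count, in 1 panel per list (the y axes differ). Vmn2r bars stand at 29.6, 13.6 and 6.43 per Mb from left to right, against 19.5, 8.78 and 5.54 for all peaks, and the 5, 1 and 1 Taar peaks give intervals that span the other bars.

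Vmn2r peaks were most numerous in a single cluster. Receptor genes of all classes were joined into clusters where neighbours lay within 500 kb, which gave 105 clusters, 39 of them with at least 10 genes (1822 of the 1988 receptor genes). The cluster with the most Vmn2r peaks was an array of 30 Vmn2r genes on chromosome 7 (7153687 to 9223653), with Vmn2r29, Vmn2r33, Vmn2r37 and Vmn2r45 among them. It held 162 Zhx1-KO hnRNPA1, 77 ZHX1 and 37 46C-Ctrl hnRNPA1 peaks. That is 78.2 (exact interval 66.6 to 91.2), 37.2 (29.3 to 46.5) and 17.9 (12.6 to 24.6) peaks per Mb, against 23.3, 10.2 and 6.75 over the whole chromosome. The array was thus 3.36, 3.63 and 2.65 times as dense as its chromosome in the same lists. Of its 276 peaks, 254 were named for a Vmn2r gene. Outside the array, Vmn2r genes had 122 Zhx1-KO hnRNPA1, 52.9 ZHX1 and 25.5 46C-Ctrl hnRNPA1 peaks per 100 genes. This was 2.41, 2.56 and 2.21 times the Olfr value in the same lists, per gene and not per Mb. Peaks per Mb of Vmn2r sequence outside the array were not computed. Whether any excess over Olfr remained there for the length of sequence was therefore not tested.

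By peaks per gene the top cluster was on chromosome 13 (65138089 to 66873358), with 11 Vmn2r and 2 Olfr genes. It held 114 Zhx1-KO hnRNPA1, 51 ZHX1 and 35 46C-Ctrl hnRNPA1 peaks, or 65.7, 29.4 and 20.2 per Mb in the same lists, against 21.0, 9.32 and 5.74 for chromosome 13. Of these 200 peaks only 1 was named for a receptor gene, so this cluster counts among the densest by position while its peaks belong, by name, to the other genes that lie in it. The chromosome 7 array ranked next by this measure, and after it came a cluster of 14 Vmn2r genes on chromosome 7 (41395945 to 42933822), which held 41 Zhx1-KO hnRNPA1, 13 ZHX1 and 8 46C-Ctrl hnRNPA1 peaks. This was 1.14, 0.825 and 0.770 times the density of the chromosome. At the other end stood the Taar cluster of chromosome 10 (23920356 to 24109534, 16 genes) with 4 Zhx1-KO hnRNPA1 peaks, 1 ZHX1 peak and no 46C-Ctrl hnRNPA1 peak in 0.190 Mb. An Olfr cluster of 18 genes on chromosome 1 (174040705 to 174451277) held 5 Zhx1-KO hnRNPA1 peaks and 1 in each 46C-Ctrl list. The largest cluster of all, 287 Olfr genes on chromosome 2 (85330779 to 90403897), held 98 Zhx1-KO hnRNPA1, 26 ZHX1 and 15 46C-Ctrl hnRNPA1 peaks. In the same lists its densities of 19.3 (15.7 to 23.5), 5.12 and 2.96 per Mb stood against 21.1, 9.27 and 5.83 over chromosome 2.

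Apart from the top 2, most clusters had an interval that included the level of their chromosome, 29 of 37 in Zhx1-KO hnRNPA1, 32 in ZHX1 and 34 in 46C-Ctrl hnRNPA1. The interval lay above that level for 5, 2 and 0 clusters in the same lists, and below it for 3 in each. The highest of the 5 ratios in Zhx1-KO hnRNPA1, named after its value was seen, was 2.66 at a cluster of 15 Olfr genes on chromosome 4 (118658952 to 118938612), with 56.9 peaks per Mb (32.6 to 92.5) against 21.4. The number of the 39 clusters that were denser than their own chromosome was 20 in Zhx1-KO hnRNPA1, 15 in ZHX1 and 12 in 46C-Ctrl hnRNPA1, and the median ratio in the same lists was 1.04, 0.949 and 0.788. The 3 Olfr clusters of chromosome 11 (86 genes) had 58.6 Zhx1-KO hnRNPA1, 14.5 ZHX1 and 9.52 46C-Ctrl hnRNPA1 peaks per Mb, against 24.3, 10.5 and 5.79 in the 36 clusters elsewhere. Chromosome 11 itself held 40.8, 15.2 and 10.9 peaks per Mb, so together these 3 clusters were denser than it in Zhx1-KO hnRNPA1 and not in either 46C-Ctrl list.

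**Figure D2:**
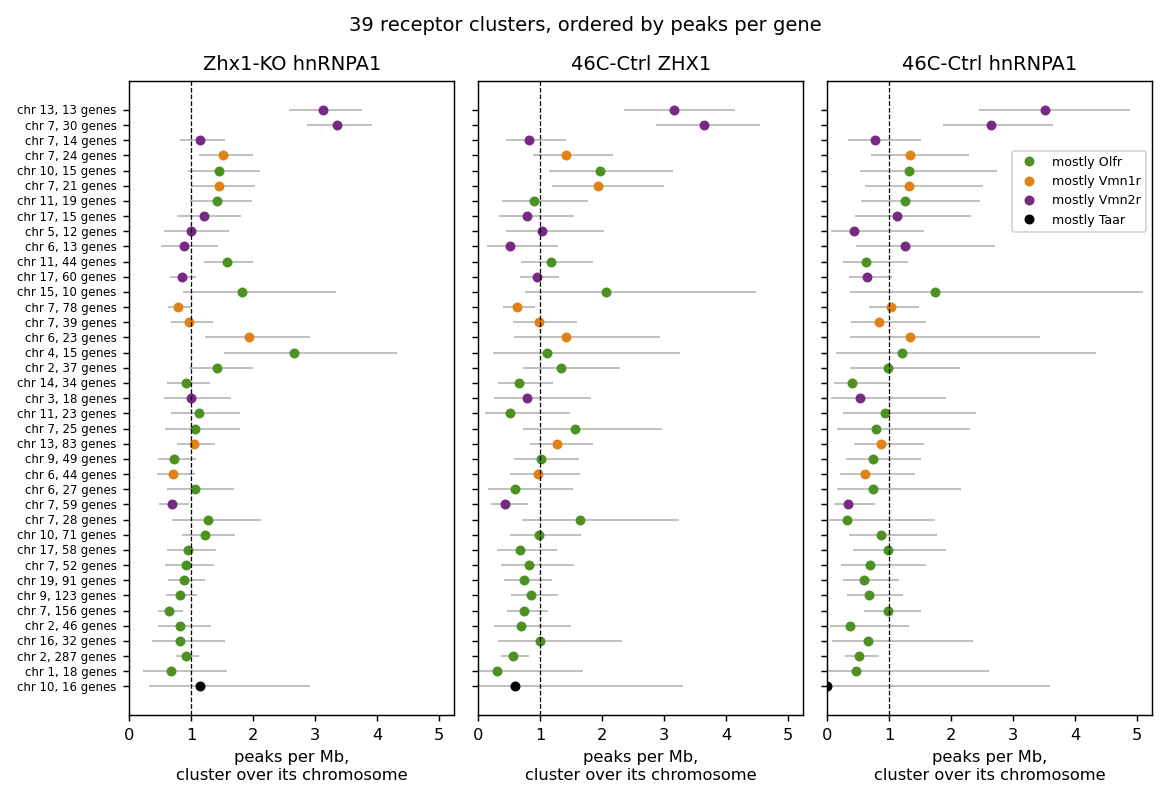
Peaks per Mb of the 39 clusters with at least 10 receptor genes, divided by the value of their chromosome (dashed line at 1), in the order of peaks per gene from top to bottom. Points are coloured by the class of most genes, lines are exact Poisson 95% intervals of the count, and in every panel the top 2 clusters lie clear of 1 while most others straddle it.

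Most genes with many peaks were members or neighbours of the chromosome 7 array or stood at the very start of a chromosome. Vmn2r47 had 27 peaks in Zhx1-KO hnRNPA1, 11 in ZHX1 and 4 in 46C-Ctrl hnRNPA1. Only 2 of these 42 peaks lay nearest to its own start by curated RefSeq starts. The name was carried mostly by distant peaks, 34 of them inside the array, at a median of 1119 kb from the gene. Vmn2r45 in the same lists had 18, 14 and 2 peaks, Vmn2r37 had 18, 5 and 1, and Vmn2r46 had 18, 4 and 1, all of them vomeronasal receptor genes on chromosome 7. Vmn2r33, inside the array, had 8, 6 and 2. Vmn2r111, a vomeronasal receptor gene of chromosome 17, was the exception to the order of the lists with 2, 1 and 4 peaks. Of the Taar genes, Taar2 had 1 Zhx1-KO hnRNPA1 peak, Taar3 had 1 ZHX1 peak and Taar1 had 1 46C-Ctrl hnRNPA1 peak.

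Olfr161, an odorant receptor gene on chromosome 16, had more peaks over the 3 lists than any other receptor gene, 24 in Zhx1-KO hnRNPA1, 20 in ZHX1 and 13 in 46C-Ctrl hnRNPA1. All 57 lay in the first Mb of assembled sequence, next to the gap at the centromeric end, and Olfr161 is the closest gene for 563 kb there. In the same lists Vmn1r238 on chromosome 18 had 15, 8 and 4 peaks and, on chromosome 4, Vmn1r3 had 8, 5 and 4 and Vmn1r2 had 5, 5 and 5. All peaks of these pheromone receptor genes also lay in the first Mb. The first Mb of the chromosomes together held 53 (3.89%) of Zhx1-KO hnRNPA1, 38 (6.51%) of ZHX1 and 27 (8.63%) of 46C-Ctrl hnRNPA1 receptor peaks, against 1.21%, 1.66% and 1.38% of all peaks.

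Receptor peaks lay in multi-copy sequence far more often than other peaks. The median word occurred 2 or more times in 61.3% (58.7 to 63.8) of Zhx1-KO hnRNPA1, 56.0% (51.9 to 60.0) of ZHX1 and 57.5% (52.0 to 62.9) of 46C-Ctrl hnRNPA1 receptor peaks, against 31.4%, 25.3% and 24.5% of all peaks. In the same lists the share was highest for Vmn2r peaks, at 79.0%, 77.7% and 79.3%. Vmn1r peaks had 62.0%, 59.3% and 63.5%, and Olfr peaks 51.3%, 41.2% and 43.8%. This order depended on the threshold. From 100 copies on, the Vmn2r shares were 19.25%, 16.85% and 21.84% in the same lists. Vmn1r peaks then had 27.76%, 23.15% and 25.40%, and Olfr peaks 30.39%, 19.59% and 20.99%. Reads without a unique position had been removed by the authors, so each such peak rests on the reads that a mismatch to the other copies or a unique mate could place.

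The sequence around the genes was itself often multi-copy. Of the windows every 20 kb, 51.3% were multi-copy near Vmn2r genes, 55.4% near Vmn1r genes and 25.9% near Olfr genes, against 17.4% in the genome. Peaks were therefore multi-copy more often than windows near Vmn2r and Olfr genes, whereas near Vmn1r genes the intervals of peaks and windows overlapped in each list. In the chromosome 7 array 98.8% of Zhx1-KO hnRNPA1, 98.7% of ZHX1 and 94.6% of 46C-Ctrl hnRNPA1 peaks were multi-copy, but so were 95.2% of the 104 windows there. Repeats marked in the assembly covered a median of 82.4%, 66.1% and 69.1% of a receptor peak in the same lists, against 25.5%, 21.3% and 18.6% of any peak and 45.8% of a window near receptor genes. The median G and C content of receptor peaks was 46.9% in Zhx1-KO hnRNPA1, 42.7% in ZHX1 and 43.5% in 46C-Ctrl hnRNPA1, against 48.3%, 46.3% and 46.7% for all peaks. It was higher than the 38.5% of windows near receptor genes, as all peaks were higher than the 41.5% of the genome.

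**Figure D3:**
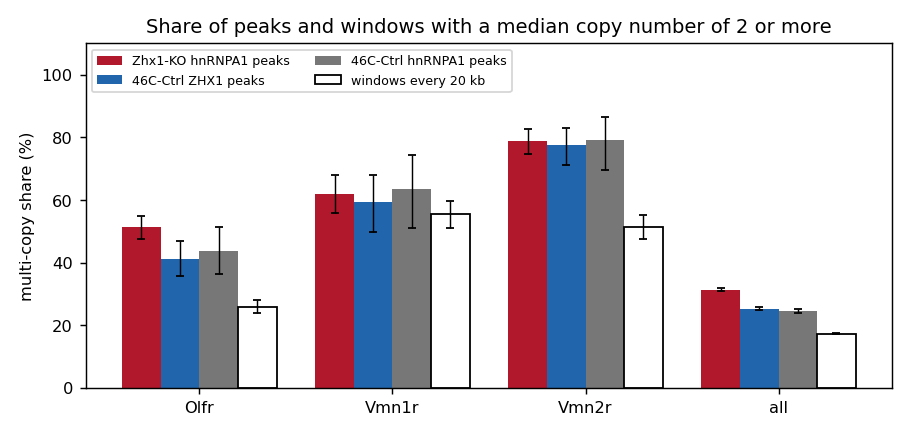
Share of peaks with a median 32-base copy number of 2 or more, by class and list, with Wilson 95% intervals, beside the share of 260 bp windows placed every 20 kb (white bars). Vmn2r peaks stand at 79.0%, 77.7% and 79.3%, against 51.3% of windows, and all peaks stand at 31.4%, 25.3% and 24.5%, against 17.4%.

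Receptor peaks overlapped between lists more often than the average peak, with the highest shares among Vmn2r peaks. Among multi-copy peaks alone, the intervals of receptor peaks as a whole included the share of all such peaks. Among single copy peaks, the intervals between the 46C-Ctrl lists lay above it, as did that of Zhx1-KO hnRNPA1 receptor peaks with ZHX1. Counted from the ZHX1 list, the interval of that last pair included it. Of the 584 ZHX1 receptor peaks, 51 (8.73%, 6.70 to 11.3) overlapped a Zhx1-KO hnRNPA1 peak by at least 1 bp, against 4.42% of all ZHX1 peaks. The same 51 pairs were 3.74% of the 1364 Zhx1-KO hnRNPA1 receptor peaks, against 1.99% of all peaks of that list. Of the 313 hnRNPA1 receptor peaks of 46C-Ctrl, 26 (8.31%, 5.73 to 11.9) overlapped a Zhx1-KO hnRNPA1 peak, against 4.41% of all, and these were 1.91% of the Zhx1-KO receptor peaks, against 1.26%. Between the 46C-Ctrl lists, 28 receptor peaks overlapped, which was 4.79% of ZHX1 receptor peaks against 2.60% of all, and 8.95% (6.26 to 12.6) of hnRNPA1 receptor peaks against 4.12%.

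By class, 29 of 184 Vmn2r peaks of ZHX1 overlapped Zhx1-KO hnRNPA1 (15.8%, 11.2 to 21.7), against 8 of 108 Vmn1r peaks (7.41%, 3.80 to 13.9) and 14 of 291 Olfr peaks (4.81%, 2.89 to 7.91). The hnRNPA1 list of 46C-Ctrl gave the same order with Zhx1-KO hnRNPA1, at 15 of 87 Vmn2r (17.2%, 10.7 to 26.5), 5 of 63 Vmn1r (7.94%) and 6 of 162 Olfr peaks (3.70%). With ZHX1 it had 14 of 87 Vmn2r (16.1%, 9.84 to 25.2), 5 of 63 Vmn1r (7.94%) and 9 of 162 Olfr peaks (5.56%). The Vmn2r intervals lay above the share of all peaks in each of these comparisons, and the Olfr intervals included it. No Taar peak was shared.

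**Figure D4:**
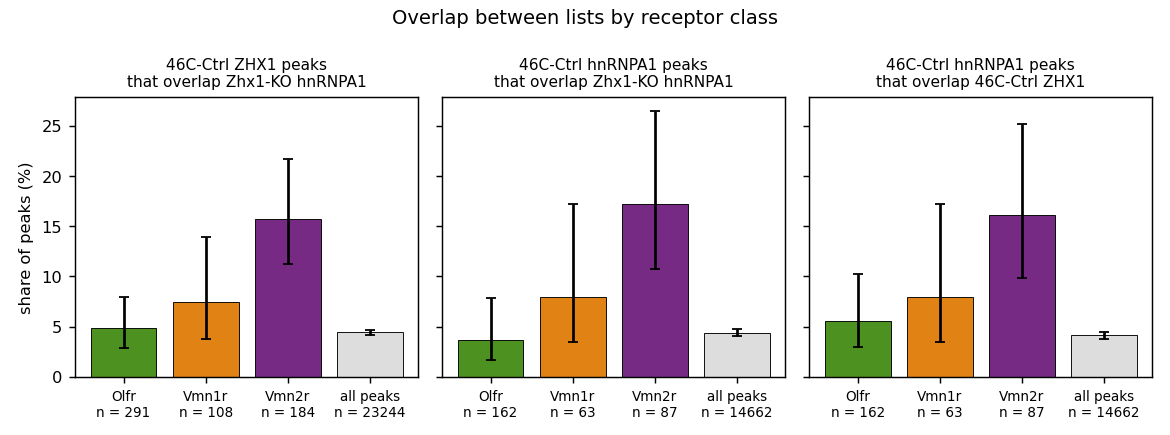
Share of peaks that overlapped a peak of another list by at least 1 bp, by receptor class, with Wilson 95% intervals and the number of peaks under each bar. The Vmn2r bars stand at 15.8%, 17.2% and 16.1%, against 4.42%, 4.41% and 4.12% for all peaks.

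Copy number and a few places moved with these shares. Among multi-copy receptor peaks, 13.1% (9.91 to 17.2) of ZHX1 and 11.7% (7.76 to 17.2) of 46C-Ctrl hnRNPA1 peaks overlapped Zhx1-KO hnRNPA1, against 10.6% and 12.5% of all multi-copy peaks. Of the multi-copy 46C-Ctrl hnRNPA1 receptor peaks 10.6% (6.86 to 15.9) overlapped ZHX1, against 10.95% of all. Multi-copy Vmn2r peaks of ZHX1 overlapped Zhx1-KO hnRNPA1 in 19.6% (13.9 to 26.8), above the 10.6%, whereas for 46C-Ctrl hnRNPA1 the Vmn2r interval with Zhx1-KO hnRNPA1 (11.4 to 29.6) included the 12.5%. Among single copy receptor peaks, 3.11% (1.59 to 6.02) of ZHX1 and 3.76% of 46C-Ctrl hnRNPA1 peaks overlapped Zhx1-KO hnRNPA1, against 2.34% and 1.78% of all single copy peaks. The intervals of these 2 shares included the share of all. Between the 46C-Ctrl lists the single copy share was 6.77% (3.60 to 12.4) of hnRNPA1 receptor peaks, against 1.91%. It was 2.72% (1.33 to 5.51) of ZHX1 receptor peaks, against 1.23%. Of single copy Zhx1-KO hnRNPA1 receptor peaks, 2.08% (1.17 to 3.69) overlapped ZHX1, with an interval above the 1.14% of all. The share that overlapped 46C-Ctrl hnRNPA1 was 0.758% (0.295 to 1.93), with an interval that included the 0.569% of all. Inside the chromosome 7 array, 18 of the 77 ZHX1 peaks of any name (23.4%) and 10 of the 37 hnRNPA1 peaks of 46C-Ctrl (27.0%) were shared with Zhx1-KO hnRNPA1. With the array and the first Mb of each chromosome both left out, a choice made after seeing the data, the receptor shares were 5.51% (3.79 to 7.95) for ZHX1 with Zhx1-KO hnRNPA1, against 4.29% of all peaks. They were 5.16% for 46C-Ctrl hnRNPA1 with either other list, against 4.24% with Zhx1-KO hnRNPA1 and 3.93% with ZHX1. Outside the first Mb, 2 of 90 Vmn1r peaks of ZHX1 (2.22%) overlapped Zhx1-KO hnRNPA1, against 6 of 18 inside it.

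Peaks of different lists also held copies of the same sequence at different places. At least 50% of the 32-base words of 27.7% of ZHX1 receptor peaks occurred in Zhx1-KO hnRNPA1 peaks anywhere in the genome, against 16.0% of all ZHX1 peaks. For 46C-Ctrl hnRNPA1 the share was 31.0% with Zhx1-KO hnRNPA1, against 15.8%, and 29.1% with ZHX1, against 14.9%. Among receptor peaks that overlapped no peak of the other list, 22.3%, 25.8% and 23.5% still met this in the same order of comparisons, against 13.1%, 12.9% and 12.1% of all such peaks. This measure was added after seeing the data.

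The overlaps came from 85 positions. Of these, 46 were Vmn2r, 27 Olfr and 12 Vmn1r positions, 72 held a multi-copy peak and 13 were single copy throughout, 26 lay in the chromosome 7 array and 13 in the first Mb of a chromosome. All 3 lists met at 10 positions. The array held 4 of them, named for Vmn2r29, Vmn2r33, Vmn2r45 and Vmn2r47, and Vmn2r48 lay beyond its end at 2.37 kb from its gene. The first Mb held 3, named for Vmn1r2, Vmn1r3 and Olfr161. The remaining positions were Vmn1r77 on chromosome 7 and the coding exon of Vmn2r114 on chromosome 17, both printed above. Only the position of Vmn2r29 lay within 2 kb of the start of its gene. Copy numbers at the 10 positions ran from 1 in every peak at Vmn1r2 and Vmn1r77 to 80 in the Zhx1-KO hnRNPA1 peak at Vmn1r3.

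A further 41 positions joined Zhx1-KO hnRNPA1 with ZHX1, and the 10 with the widest peaks were named for Olfr1340, Vmn2r45, Vmn1r238, Vmn2r33, Vmn2r44, Vmn2r95, Olfr464, Olfr827, Vmn2r34 and Vmn2r47. The 16 that joined both hnRNPA1 lists included Olfr1155, Olfr161, Vmn2r49, Vmn2r43, Olfr819, Vmn2r73, Olfr221, Vmn1r238, Vmn2r38 and Vmn2r34. The 18 that joined the 46C-Ctrl lists, with no Zhx1-KO hnRNPA1 peak there, included Olfr412, Vmn2r89, Olfr641, Vmn2r37, Vmn2r40, Olfr441, Vmn1r123, Olfr155, Vmn2r111 and Olfr161. Single copy was 5 of the 41, 1 of the 16 and 5 of the 18. The position at Olfr155, an odorant receptor gene on chromosome 4, was single copy and lay 0.342 kb from its start, in its intron.

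Receptor peaks mostly lay between genes. In Zhx1-KO hnRNPA1 972 (71.3%) were intergenic, in ZHX1 417 (71.4%) and in 46C-Ctrl hnRNPA1 236 (75.4%), against 50.1%, 48.4% and 47.9% of all peaks. In the same lists introns held 222 (16.3%), 99 (17.0%) and 48 (15.3%) receptor peaks, against 41.2%, 43.1% and 44.2% of all peaks. Coding exons held 83 (6.1%), 26 (4.5%) and 8 (2.6%), against 3.7%, 3.3% and 3.0% of all peaks. The body of an annotated receptor gene was overlapped by 302 (22.1%), 132 (22.6%) and 60 (19.2%) of the receptor peaks. Their median distance to the start of the gene they were named for was 14.2, 13.5 and 13.1 kb, and 105 (7.70%), 56 (9.59%) and 20 (6.39%) lay within 2 kb of it, against 5.85%, 7.0% and 5.14% of all peaks. The name in the list was that of the nearest curated start for 93.8%, 94.9% and 94.2%.

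Within 500 bp of their gene's start lay 45 receptor peaks of Zhx1-KO hnRNPA1 (3.3%), 18 of ZHX1 (3.08%) and 7 of 46C-Ctrl hnRNPA1 (2.24%), each at a different gene within its list, against 2.90%, 2.88% and 1.66% of all peaks. Most were odorant receptor genes, 34, 14 and 4. Their coding sequence is usually a single exon, and 25, 10 and 1 of these Olfr peaks lay in a coding exon. The distances are to curated RefSeq starts, and whether transcription begins there was not tested. Examples chosen after their values were seen are Olfr1048 in Zhx1-KO hnRNPA1 at 0.056 kb and Olfr209 in ZHX1 at 0.020 kb, both single copy and in the coding exon. Olfr1349 and Olfr155 had peaks at this distance in ZHX1 and in 46C-Ctrl hnRNPA1. No Vmn1r peak of 46C-Ctrl hnRNPA1 lay within 2 kb of its gene's start, which allows up to 4.76% of its 63 peaks, while Zhx1-KO hnRNPA1 had 10 of 245 and ZHX1 8 of 108.

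Annotated genes had a peak in their body more often where they were protein coding. For Vmn2r genes the shares were 45.9% of 122 coding genes against 22.4% of 116 pseudogenes and others in Zhx1-KO hnRNPA1, 27.0% against 12.1% in ZHX1, and 14.8% against 6.03% in 46C-Ctrl hnRNPA1. Coding Vmn2r genes also averaged 30.4 kb in length, against 10.7 kb for the others. For Olfr genes the shares were 11.2% against 5.51% in Zhx1-KO hnRNPA1, 5.29% against 3.31% in ZHX1 and 2.47% against 1.47% in 46C-Ctrl hnRNPA1, with mean lengths of 6.76 kb against 1.79 kb. The part of length in this difference was not tested.

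The widest receptor peak of Zhx1-KO hnRNPA1 measured 926 bp, in an intron of Olfr1220, a fully repeat-masked stretch with a copy number of 293. Next came Olfr402 (910 bp, single copy, in its coding exon), then Olfr1340 and Vmn2r45 (875 bp each) and Vmn2r57 (811 bp, 2264 copies). In ZHX1 the widest were at Vmn1r238 (638 bp), Vmn2r33 (623 bp), Vmn2r44 (622 bp), Vmn2r95 (598 bp) and Olfr641 (592 bp), each multi-copy. In 46C-Ctrl hnRNPA1 they were at Vmn2r48 (728 bp), Olfr412 (710 bp), Vmn2r89 (671 bp), Olfr312 (595 bp) and Vmn1r103 (590 bp), and Olfr412, Vmn2r89 and Olfr312 were single copy. The median width was 277 bp in Zhx1-KO hnRNPA1, 263 bp in ZHX1 and 259 bp in 46C-Ctrl hnRNPA1, against 271, 259 and 257 bp for all peaks.

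Receptor gene names were shared between lists to an extent that went with their number of peaks. The lists used 857 receptor names, 684 in Zhx1-KO hnRNPA1, 365 in ZHX1 and 231 in 46C-Ctrl hnRNPA1, and 92 stood in all 3 (13.5%, 25.2% and 39.8% of each list). A name had a single peak in its list in 406, 261 and 182 cases. Of the 111 Vmn2r names 42 were in all 3 lists, of 150 Vmn1r names 22, of 589 Olfr names 28 and of 7 Taar names none. Both 46C-Ctrl lists had 110 names, and 18 of these had no peak in Zhx1-KO hnRNPA1: 16 Olfr, 2 Vmn1r and 0 Vmn2r. With peaks within 2 kb of the gene body alone, 10 names were in all 3 lists. Over all peaks there were 15388 gene names in Zhx1-KO hnRNPA1, 10872 in ZHX1 and 8495 in 46C-Ctrl hnRNPA1. How many of those names were shared was not counted, so the sharing given here cannot be called particular to receptor genes.

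Other gene families in tandem arrays are given for comparison. Peaks named for Zfp genes, which encode zinc finger proteins, had a density of 28.5 per Mb in Zhx1-KO hnRNPA1, 12.8 in ZHX1 and 7.49 in 46C-Ctrl hnRNPA1, and 41.8%, 34.3% and 38.1% of them in the same lists were multi-copy. They overlapped Zhx1-KO hnRNPA1 in 24 cases from ZHX1 (7.23%, 4.91 to 10.5) and in 11 from 46C-Ctrl hnRNPA1 (5.67%, 3.20 to 9.87), values whose intervals overlapped those of all receptor peaks and, for ZHX1, lay below that of Vmn2r. Peaks named for Cyp genes, which encode cytochrome P450 enzymes, numbered 198 in Zhx1-KO hnRNPA1, 90 in ZHX1 and 47 in 46C-Ctrl hnRNPA1, with a multi-copy share of 45.0%, 41.1% and 38.3%, and 3 of the 90 ZHX1 peaks (3.33%) overlapped Zhx1-KO hnRNPA1. The defensin families Defa and Defb, which encode antimicrobial peptides, had 39, 14 and 13 peaks in the same lists, of which 35.9%, 42.9% and 38.5% were multi-copy.

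Other genes linked to smell and pheromone sensing had a density close to that of all peaks, lower in ZHX1 and higher in 46C-Ctrl hnRNPA1. They included receptors of the Fpr family and general chromatin regulators such as Setdb1 and Cbx5. Of 47 such genes, 32 had a peak in Zhx1-KO hnRNPA1, 19 in ZHX1 and 25 in 46C-Ctrl hnRNPA1. A peak in all 3 lists was found for 11 and in none for 6. Over all genes, 15388, 10872 and 8495 names had a peak in the same lists, beside 55450 annotated genes of every type. These counts were not matched for length. In the same lists the 47 genes had 19.3, 7.75 and 6.72 peaks per Mb, against 19.5, 8.78 and 5.54 over all peaks. Ncam2, a cell adhesion gene of olfactory neurons with 2186 kb of closest sequence, had 27 Zhx1-KO hnRNPA1, 7 ZHX1 and 7 46C-Ctrl hnRNPA1 peaks. Ano2, the chloride channel of olfactory cilia, had 6, 5 and 3 in the same lists. Gnal, which encodes the G protein subunit through which odorant receptors signal, had 4, 4 and 0, and Omp, the marker of mature olfactory neurons, had 3, 0 and 0. Among regulators of receptor choice, Lhx2 had 7, 3 and 2 peaks, Ebf1 had 10, 1 and 1, and Bcl11b, a transcription factor in these neurons, had 11, 5 and 1. Lhx2, Ebf1 and Bcl11b had 118.2, 266.4 and 221.9 kb of closest sequence. Lbr, also among the 47 genes, had 7, 3 and 2 peaks. Others had fewer, with Emx2 at 1, 0 and 0 and Kdm1a at 1, 0 and 1. Ebf2 had 0, 1 and 1, Ebf3 0, 0 and 1, Ldb1 0, 1 and 0, and Atf5 0, 0 and 2. Gnao1 and Gnai2, which encode the G protein subunits found with Vmn2r and Vmn1r receptors, had no peak in any list. They had 46.8 and 29.1 kb of closest sequence. Whether their lack of peaks is unusual for that length was not tested.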

How the data were processed

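Reads of the 3 ChIP libraries had been trimmed by the authors with cutadapt 1.18, reads under 50 bases dropped, and the rest mapped with Bowtie2 2.3.5.1 to GRCm38; unmapped, multiply mapped and duplicate reads were discarded. BWA 0.7.12-r1039 and deepTools 3.3.0 are listed too in the submitters' processing notes. The sources used here do not name the peak caller, its threshold or the use of the inputs. The deposited lists give positions and a gene name for each peak, called per library, with no score, signal or count, so depth is unknown and peaks were ranked by width. No column was left out for want of a sample (0 columns).

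The members and lists were chosen with earlier results of these data known. Groups came from the sample titles. Genes, exons and starts were taken from GENCODE M21 and curated RefSeq transcripts on GRCm38, and 847 of the 857 receptor names matched GENCODE. Shares carry Wilson and counts exact Poisson 95% intervals. Ratios between classes or between lists carry exact binomial 95% intervals. Ratios to all peaks carry the Poisson interval of the receptor count, with the density of all peaks, receptor peaks included, held fixed. A share of 0 allows up to 3 counts of its total. Overlap was 1 bp or more, copy number was the median over 32-base words, and 260 bp windows every 20 kb served as the sequence background. Named genes were, per list, the 5 with the most peaks and the 5 widest peaks, the 3 with the most peaks for Vmn1r, Vmn2r and Taar, all positions shared by 3 lists with the 10 widest for each pair, the 3 clusters with the most and the fewest peaks per gene, and for sequence the widest shared position of each class outside chromosome 18; exceptions are stated. Alternatives changed how peaks were assigned, minimum width, list length, copy number, overlap, cluster distance and the genes counted. Intervals came from scipy 1.17.1, word counts from numba 0.67.0 and numpy 2.4.6, tables from pandas 2.3.3 and figures from matplotlib 3.10.9, under Python 3.11.15. Peak overlap and the Wilson and Poisson intervals were tested on simulated data, and the other steps were not.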

Additional observations from a re-analysis of the deposited data

How the results depend on the processing

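Values are given for Zhx1-KO hnRNPA1, 46C-Ctrl ZHX1 and 46C-Ctrl hnRNPA1 in that order. The receptor share of the list was 2.10%, 1.95% and 1.70% when peaks were assigned to the nearest gene body, 0.638%, 0.611% and 0.450% for peaks over a receptor gene body, and 1.49%, 1.48% and 1.20% for single copy peaks. The ratio of Vmn2r to Olfr peaks per gene was 5.21, 5.88 and 5.0 over protein-coding genes, 4.71, 4.52 and 4.84 for peaks over gene bodies, 1.29, 1.45 and 1.23 per Mb, and 2.41, 2.56 and 2.21 without the chromosome 7 array. It was 4.28 in 46C-Ctrl hnRNPA1 for peaks above the smallest width, and stayed above 1 in 21 of 21 settings. None of these settings took out the array on the per Mb scale. The multi-copy share was 39.0%, 31.8% and 34.2% from 10 copies, and 52.1%, 44.2% and 45.4% with 50-base words. Peaks per gene in the chromosome 7 array were 3.23, 1.46 and 0.754 when genes within 1 Mb were joined. Overlap of single copy receptor peaks with Zhx1-KO hnRNPA1 was 3.11% for ZHX1 and 3.76% for 46C-Ctrl hnRNPA1. For ZHX1 it was 4.23% over gene bodies and 6.47% without the array. By shared words it was 27.7% for ZHX1 and 31.0% for 46C-Ctrl hnRNPA1, and 29.1% between the 46C-Ctrl lists. With peaks within 2 kb of the gene body, 10 names were in all 3 lists, against 92. Another 34 values moved by less than their interval. The per Mb scale, the shared words and the settings without the array or the first Mb were added after seeing the data. No paired analysis was possible because each group had 1 library. The cause of these changes was not tested. Unknown depth and caller settings limit every comparison of list length. By 32-base words, most receptor peaks rest on uniquely placed reads in sequence that occurs more than once. By 50-base words this held for most receptor peaks of Zhx1-KO hnRNPA1 only.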
